A study of Mus musculus with 30 samples.

Results

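Serpinb2, Serpinb3c and Serpinc1 are 3 mouse genes of the serpin family, each read by 1 of the 5,619 probes that could be named in the authors' value table. They were chosen by their logratios in these same arrays, as genes that differ among tissues, so their own levels are given as a description, without a test. A further 11 probes carry a serpin symbol. The 15 tissues profiled were bladder, bone, brain cortex, cerebellum, eyes, fat, heart, kidney, large intestine, liver, lung, muscle, skin, small intestine and stomach. They came from untreated male C57BL/6 mice aged 28 weeks by the labels, although the methods of the study give another age, and each was hybridised to 2 arrays, 30 in all. Tissue RNA was labelled with Cy3 throughout. A common reference labelled with Cy5, made from RNA of several mouse cell lines and of embryonic stem (ES) cells, went onto every array. The methods of the study state that both replications of a tissue came from different animals. For bone and fat the series text speaks instead of a single replication, although each has 2 labelled arrays, and the sources thus differ on these. A level is the logratio log2(Cy3/Cy5) after normalization, where positive values mean more of the transcript in the tissue than in the reference. A probe is called detected on an array where the scanner software flagged its Cy3 signal as well above background. The samples were pieces of whole tissue, in which fewer cells of a type and less RNA per cell cannot be told apart.

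Serpins are proteins of a common fold, most of which inhibit serine proteases by a trap: the protease cleaves an exposed loop of the serpin and is then locked in an inactive complex. Serpinc1 encodes antithrombin, which the liver secretes into plasma and which, with heparin as a cofactor, inactivates thrombin and other clotting proteases. Clade B serpins lack a classical signal peptide and act mostly inside cells, with many of them known from stratified epithelia. Serpinb2 encodes plasminogen activator inhibitor type 2, known from keratinocytes and activated macrophages, and Serpinb3c belongs to the mouse relatives of the human squamous cell carcinoma antigens. The mouse stomach has a forestomach lined by a squamous epithelium besides its glandular part.

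The 3 probes are shown because every level below rests on them. Each is a 60-base oligonucleotide, written as the scanner files give it:
Serpinb2: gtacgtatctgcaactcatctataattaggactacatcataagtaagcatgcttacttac
Serpinb3c: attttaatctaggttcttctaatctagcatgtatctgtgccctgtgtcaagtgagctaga
Serpinc1: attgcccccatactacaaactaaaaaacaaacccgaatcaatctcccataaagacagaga
The mouse Serpinb3 genes are close relatives, so the probes were compared with each other. The longest run of bases shared by any 2 of the 14 serpin probes was 10 of 60 bases. No serpin probe shared a run of 20 bases, on either strand, with any other of the 42,006 probes of the array. Transcripts outside the array were not searched.

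Serpinb2 was highest in skin and next highest in stomach. Its logratios were 5.79 and 5.76 on the 2 skin arrays and 4.03 and 4.61 on the 2 stomach arrays. The 2 groups did not overlap, and skin lay 1.46 above stomach, a 2.75-fold ratio. Bone came next with a mean of 2.10 ± 2.27 (SD, n = 2), because its 2 arrays disagreed: replicate 1 read 3.70 and replicate 2 read 0.49. Both bone arrays lay below both stomach arrays and above every array of the other 12 tissues, which ranged from -1.62 to 0.20 with a median of -1.05. Of those 12, the probe was detected on both arrays in lung (-0.12 and -0.58) and eyes (-0.68 and -0.75) and on 1 of 2 in fat (-1.02 and 0.20). Fat overlapped with lung and with eyes, which did not overlap with each other. Each further pair of neighbours in the order overlapped except kidney and bladder. In the 9 tissues where no array detected the probe, only a bound could be given. In the Cy3 channel, by the lower of 2 scalings (Aquantile and quantile), skin was at least 66.8-fold to 74.3-fold above them, and stomach at least 21.6-fold to 24.0-fold. These bounds come from 1 dye and are open to dye bias, since dyes were not exchanged. Negative logratios in those tissues reflect a reference with a readable level: Cy5 was well above background for Serpinb2 on all 30 arrays, at 173 to 269 scanner units.

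The 2 bone arrays differed beyond Serpinb2. They lay on different slides and scan days, and their logratios had r = 0.848 over probes, where fat (0.671) and large intestine (0.798) had less and the other 12 tissues at least 0.947. The summed linear ratios of 5 hepatocyte markers were 4.46 in bone replicate 1 and 10.3 in replicate 2. Apoa2 (0.1 and 2.04) and Acaa1b (-0.91 and 1.38) rose most, and both were also high outside liver (4.28 in cerebellum and 5.31 in bladder). Agxt read -0.09 and 0.62, Cps1 -0.25 and 0.0, and Spp2 0.1 and 0.08. Coagulation factor F5 read 5.0 and 2.57. Leukocyte markers were looked at as well, since Serpinb2 is also known from macrophages. Of the 6 leukocyte marker genes with a named probe that are reported here (Ptprc, Fcgr2b, Fcgr3, Fcgr4, Fcer1g and Rgs1), 3 were higher in bone replicate 1 and 3 in replicate 2. The differences of these 6, replicate 1 minus replicate 2, ran from -0.07 to 0.29, the largest for Fcer1g, the shared signalling chain of Fc receptors, which read 2.24 and 1.95. Their summed linear ratios were 14.3 and 12.8 in the 2 bone arrays and 2.97 to 14.4 over all 30 arrays. Serpinb10, a serpin known from haematopoietic cells, read 0.93 and was detected in bone replicate 1, and read 0.03 without detection in replicate 2. The part of any of these in the Serpinb2 difference was not tested.

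Serpinb3c was a stomach gene with a second, lower level in the eyes. It read 6.50 and 6.53 in stomach, 3.28 and 3.38 in the eyes, and 0.89 and 0.47 in skin. These 3 tissues did not overlap with each other or with the rest. Stomach exceeded the eyes by 3.19, a 9.10-fold ratio, and exceeded skin by 5.84, a 57.2-fold ratio. In the remaining 12 tissues the 24 arrays lay between -0.34 and 0.10 (median -0.07). Among these 12, muscle, lung, small intestine, heart and cerebellum had the probe detected on both arrays, at means of -0.14 to 0.08. In 4 tissues (liver, large intestine, fat and kidney) it was detected on no array, and in the Cy3 channel, by the same rule, stomach was at least 66.2-fold to 80.7-fold above them and the eyes at least 6.13-fold to 7.48-fold. The eye samples were labelled only as eyes, and the cells of the eye that carried the transcript were not resolved.

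Serpinc1 was a liver gene on these arrays. The 2 liver arrays read 5.25 and 5.36, against -0.17 to 0.47 on the other 28 arrays (median 0.06). Small intestine followed with 0.26 and 0.47, then stomach with 0.26 and 0.39 and kidney with 0.18 and 0.32. Each of these overlapped with the next in order, and no array of another tissue came near the liver arrays. Besides liver, the probe was detected on both arrays only in stomach, and on 1 of 2 arrays in small intestine, skin, brain cortex and eyes. The log2 Cy3 level after quantile scaling was 13.27 and 13.09 in liver and 6.14 to 6.71 on the other 28 arrays. No fold is given against the 9 tissues without detection, because it depended on the scale.

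**Figure D1:**
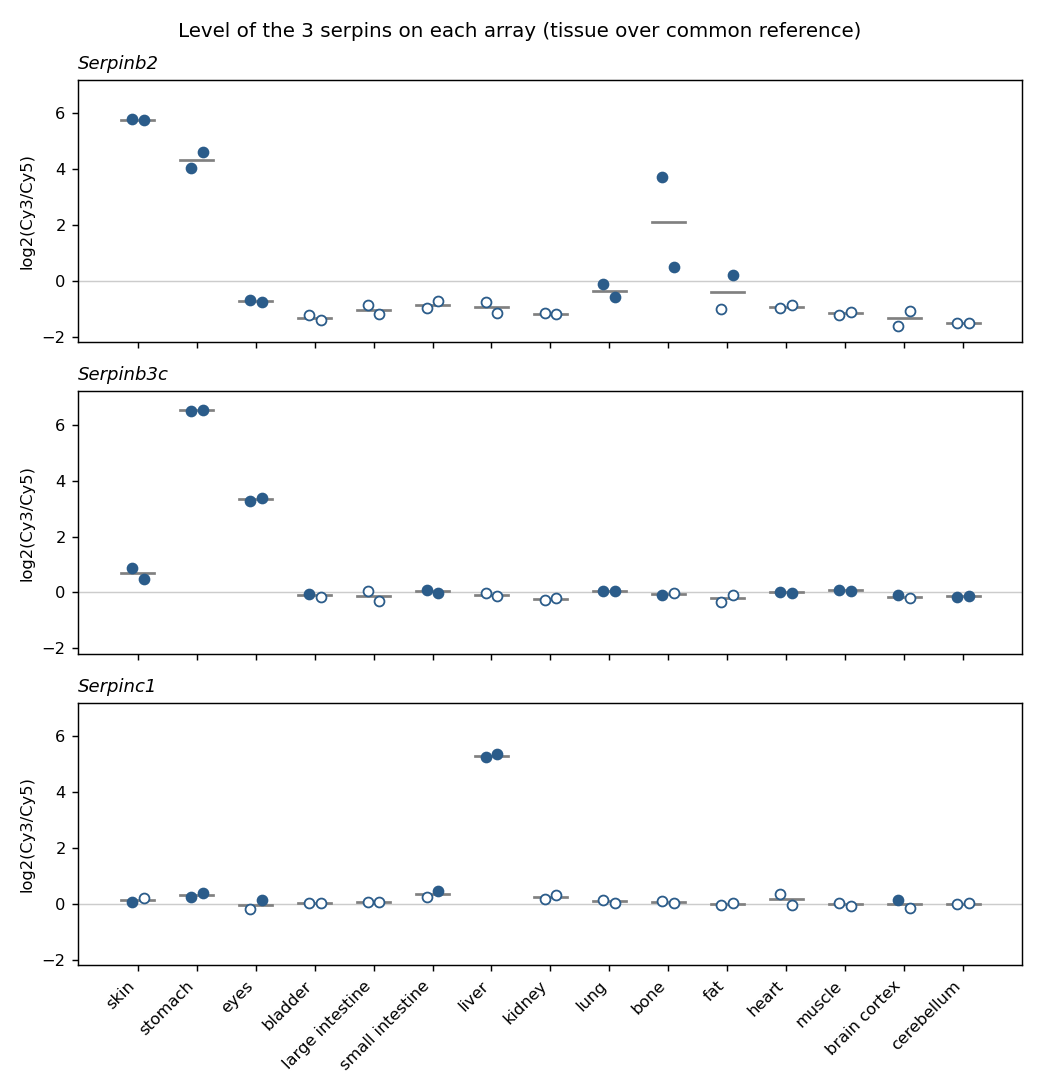
Logratio log2(Cy3/Cy5) of Serpinb2, Serpinb3c and Serpinc1 (vertical axes) in 15 tissues (horizontal axis), with 1 point per array and a bar at the mean of the 2 arrays. Filled points were well above background in Cy3 and open points were not. Skin and stomach stand out for Serpinb2, stomach and eyes for Serpinb3c, and liver for Serpinc1, and the bone arrays differ for Serpinb2 (3.70 and 0.49).

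The ratio divides the tissue signal by the reference signal, and for some genes, Serpinc1 among them, the reference signal was not steady. Cy5 held the same RNA on every array, and for Serpinb2 its signal was steady: 236 and 227 scanner units on the skin arrays and a median of 214 elsewhere. For Serpinb3c it was 203 and 222 on the stomach arrays and 115 to 180 on the other 28, a rise to 1.5 times its median elsewhere. For Serpinc1 it was 1100 and 878 on the liver arrays, with Cy3 at 10100 and 8110, and 58.5 to 125 on the other 28. The Cy5 signal of Serpinc1 on liver arrays was thus 14.1 times its median elsewhere. The same held for other serpins where Cy3 was bright: Serpinb12 had Cy5 signals of 2920 and 4240 on the stomach arrays and at most 210 elsewhere, and Serpinb5 had 955 and 876 on the skin arrays and at most 492 elsewhere. Among all probes called higher in liver, 432 of 1136 (38%) had their Cy5 signal on both liver arrays above all other arrays, against 2.7% of the probes not called. The cause was not tested. The difference of Serpinc1 between liver and the next highest tissue was 4.94 by the logratio and 6.55 by the Cy3 level, with small intestine next, and 2.95 by the processed signals of the scanner software, with stomach next. In small intestine 1 of 2 arrays detected the probe, so these are not exact sizes.

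**Figure D2:**
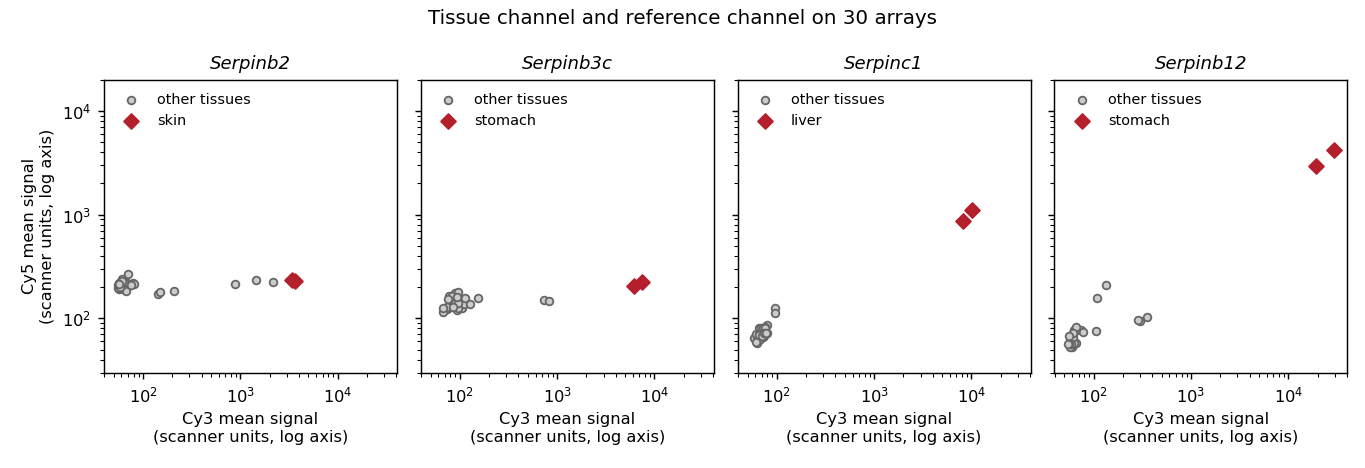
Mean Cy5 signal of the reference (vertical axis) against mean Cy3 signal of the tissue (horizontal axis), both in scanner units on log axes, for 4 serpins on 30 arrays each. Red diamonds are the 2 arrays of the named tissue and grey points the other 28. Cy5 stays between 115 and 269 scanner units for Serpinb2 and Serpinb3c at any Cy3 level, and reaches 1100 for Serpinc1 in liver and 4240 for Serpinb12 in stomach.

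Serpinb2 and Serpinb3c lie in a run of 12 clade B serpin genes on chromosome 1, in the order Serpinb5, Serpinb12, Serpinb13, Serpinb3a, Serpinb3d, Serpinb3b, Serpinb3c, Serpinb11, Serpinb7, Serpinb2, Serpinb10 and Serpinb8 in the GRCm38.p6 gene table. In that table no other protein-coding gene lies between them. Serpinc1 and Serpine2 are elsewhere on the same chromosome. The 10 clade B genes besides Serpinb2 and Serpinb3c, with Serpine2, gave 11 serpins for which tests across tissues could be made. Of these, 10 passed the filter on dim probes (detection on both arrays of at least 1 tissue), as did all 3 chosen genes, and Serpinb3d was well above background on none of 30 arrays. The F-test over 15 tissues called 9 of the 10 at an adjusted p under 0.05 (limma, Benjamini-Hochberg over all 21,019 probes tested), where it called 90.8% of all probes, and Serpinb10 (adjusted p = 0.37) was the exception.

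Of the 10 serpins tested, several clade B genes were called in skin, stomach or eyes. Serpinb2 was highest in skin and Serpinb3c in stomach, with the eyes second for Serpinb3c. Serpinb3b, Serpinb8, Serpinb10 and Serpine2 were called in no tissue. Against the mean of the other 14 tissues, with a log2 difference of at least 2, 4 of 10 serpins were higher in skin, where 3.62% of all probes were, and 6 of 10 in stomach, where 3.85% were. The eyes gave 2 (5.49% of all probes), bladder gave 1 (2.34%), and liver gave none (5.4%). In liver the 10 differences ran from -1.57 to 0.46, and at an unadjusted p under 0.05 limma gave 7, of which Serpine2 alone was higher there. The remaining 10 tissues gave none either, where 27.1% of all probes were called in at least 1 of them. The 4 in skin (Serpinb5, Serpinb7, Serpinb11 and Serpinb12) were also among the 6 in stomach, which added Serpinb13 and Serpinb3a. Of all probes, 184 (0.875%) were called in both tissues. The number in skin was 8 by the scanner software's processed signals and by the authors' value table, and 2 with median centring. These genes share a neighbourhood and in part an ancestry, so their counts are not those of independent genes. Serpinb3a, Serpinb3b, Serpinb7, Serpinb8, Serpinb10, Serpinb11 and Serpinb13 were detected on both arrays only in skin, stomach or eyes. They passed the filter only through those tissues, so the counts there, and the lack of calls elsewhere, are in part fixed by the filter.

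Serpinb7, or megsin, was highest in skin, as were Serpinb5 and Serpinb8. It read 4.75 and 4.55 in skin, 2.61 and 2.72 in stomach, and means of -0.21 to 0.27 in the other tissues. The fit put skin 4.52 ± 0.11 above the mean of the other tissues (SE, limma adjusted p = 5.83e-16), but in 11 of those tissues no array detected the probe, so that this is not an exact size. Its Cy5 signal was also raised on the skin arrays, at 358 and 298 scanner units against a median of 63.8 elsewhere. Serpinb5, which encodes maspin, read 4.37 and 4.19 in skin, 3.77 and 3.56 in the eyes, 3.25 and 3.23 in bladder, and a mean of 3.22 in stomach. It was called higher in all 4 of these tissues, by 2.19 to 3.33, and no other of the 10 serpins was called in more than 3. In 8 tissues no array detected Serpinb5, so its differences are not exact sizes. Serpinb11 read 5.10 and 4.90 in the eyes, 4.57 and 4.68 in stomach and 4.79 and 4.24 in skin, and it was detected in no other tissue. Its arrays in skin and stomach overlapped, while both eye arrays lay above them.

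Serpinb3a, Serpinb12 and Serpinb13 were stomach genes with a lower level in skin. Serpinb3a read 4.51 and 4.65 in stomach, 1.99 and 1.76 in the eyes and a mean of 1.13 in skin, the same order as Serpinb3c. Serpinb13, known from keratinocytes, read 5.03 and 5.58 in stomach and 0.88 and 1.90 in skin, and was detected in no other tissue. Serpinb12 read 4.61 and 4.62 in stomach and 2.53 and 2.81 in skin. Its Cy3 signal was 19300 and 29600 scanner units on the stomach arrays and at most 355 elsewhere. Serpinb3b was low, though detected, in stomach (1.15 and 1.31) and skin (0.93 and 1.05) and was called in neither. Serpinb8 reached 1.26 and 1.54 in skin and 0.80 and 1.14 in stomach, also under the threshold of 2.

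Fat replicate 1 read 2.16 for Serpinb5 and 2.28 for Serpinb12, both detected, where replicate 2 read -0.01 and 0.04 and detected neither. That array was 1 of the 2 arrays, of 30, that correlated best with an array other than their own replicate, the other being large intestine replicate 1. The summed linear ratios of 7 squamous epithelium genes were 6.18 and 5.29 in the 2 fat arrays, against 190.0 and 163 in skin. Those of 3 gastric gland genes were 16.0 and 4.23, against 56.6 and 50.4 in stomach. Ctse alone of these 3 was clearly apart, at 3.69 in fat replicate 1 and -0.23 in replicate 2, while Gkn3 read 1.08 and 1.26. The complement regulator C4bp read 6.50 and -0.17. The part of stomach or other tissue in the fat values was not tested. Without fat replicate 1 and large intestine replicate 1 the counts were 4 in skin and 6 in stomach, as with all arrays, and 6 between skin and stomach.

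**Figure D3:**
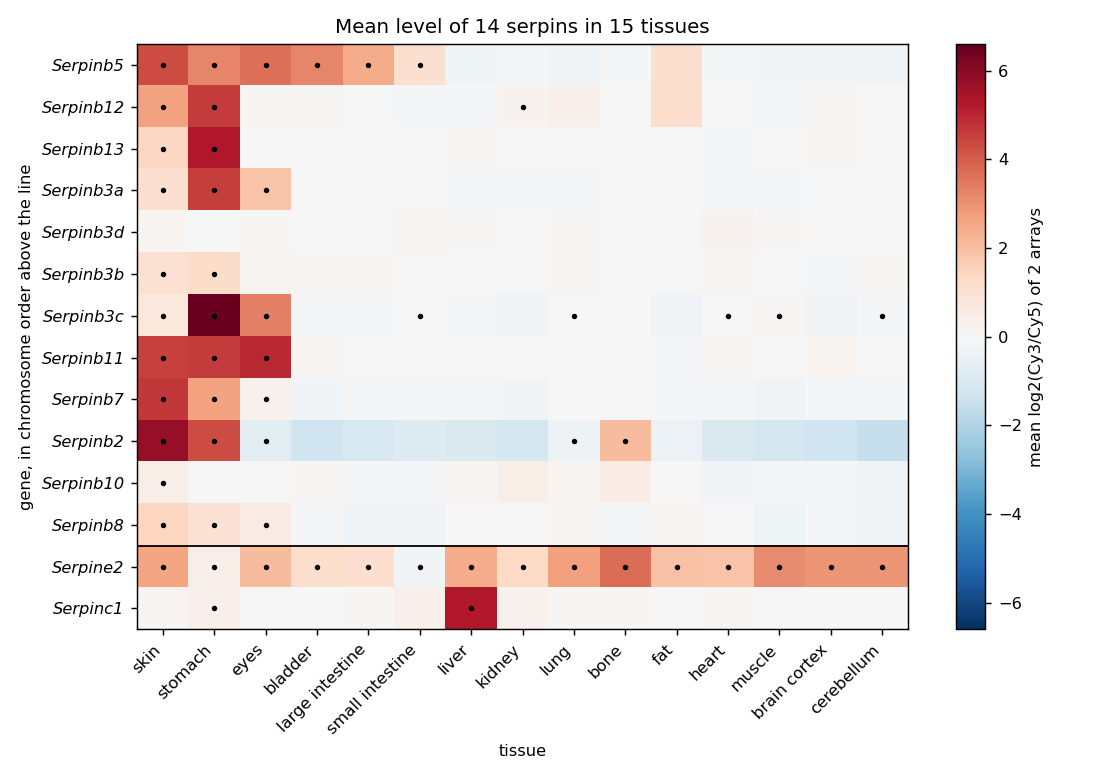
Mean log2(Cy3/Cy5) of 2 arrays (colour) for 14 serpins (rows) in 15 tissues (columns). The 12 clade B genes are above the line in chromosome order, and a dot marks a probe well above background on both arrays of the tissue. Most high values of the clade B genes sit in the skin, stomach and eyes columns. Serpinb5 also reaches bladder (3.24) and large intestine (2.43, from arrays of 3.07 and 1.79), and Serpinb2 reaches bone (2.10, from 3.70 and 0.49). Serpine2 is detected in all 15 tissues and Serpinc1 is high in liver.

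Serpine2, which encodes the protease nexin 1 secreted by many cell types, was found throughout. It was detected on all 30 arrays, from 3.76 and 3.65 in bone to 0.48 and 0.29 in stomach and -0.47 and 0.07 in small intestine. In stomach its difference from the mean of the other tissues was -1.73 (SE 0.15, limma adjusted p = 4.2e-08), and in small intestine, its lowest tissue, it was -2.36 (adjusted p = 4.28e-10). The information of the tissue distribution, in bits with 0 for equal levels, was 2.57 for Serpinb3c, 2.25 for Serpinb2 and 2.00 for Serpinc1. These were chosen for differing among tissues. Of the others, Serpinb13 had 1.99, Serpinb11 1.5, Serpinb7 1.48, Serpinb3a 1.39, Serpinb12 1.32, Serpinb5 0.885 and Serpine2 0.279. Lower still were Serpinb8 (0.104), Serpinb3b (0.0667), Serpinb10 (0.0162) and Serpinb3d (0.00154), each without detection in most tissues. These values come from the ratio and carry any change of Cy5.

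Skin and stomach were compared directly, because Serpinb2 and Serpinb3c part there. Both skin arrays shared a slide and both stomach arrays shared another, so the intervals and p-values below do not separate tissue from slide. Serpinb2 was higher in skin by 1.46 and Serpinb3c higher in stomach by 5.84, as given above and untested. Among the other serpins 5 of 10 differed (limma adjusted p under 0.05 and a log2 difference of at least 1), where 19.4% of all probes did. Of these, 2 were higher in skin (9.78% of all probes) and 3 in stomach (9.61%). Serpinb7 was higher in skin by 1.99 (95% confidence interval 1.66 to 2.31, adjusted p = 1.55e-08) and Serpine2 by 2.20 (1.77 to 2.63, adjusted p = 1.37e-07). Serpinb13 (skin minus stomach -3.92), Serpinb3a (-3.45) and Serpinb12 (-1.95) were higher in stomach, with adjusted p of 1.8e-10, 1.01e-13 and 0.000951. Serpinb5 leaned to skin by 1.06, an interval of 0.08 to 2.03, without passing the test (adjusted p = 0.0963). For Serpinb11 the difference was -0.11 with an interval of -0.44 to 0.21, so a difference of 1 lay outside the interval. Serpinb3b, Serpinb8 and Serpinb10 differed by -0.24, 0.43 and 0.36 and did not pass.

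The differences depended on the value used. By the Cy3 level alone Serpinb12 was higher in stomach by far more (skin minus stomach -6.07), Serpinb7 was higher in skin by 3.39, and Serpinb5 passed at 3.17 (limma adjusted p = 1.53e-05), which made 6 of 10. By the processed signals of the scanner software Serpinb12 gave 0.09 (adjusted p = 0.94) and Serpinb7 gave 0.11 (adjusted p = 0.939), and only 3 of 10 differed. By the Cy3 level Serpinb2, whose reference was steady, gave 1.63, and Serpinb3c gave -5.43.

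**Figure D4:**
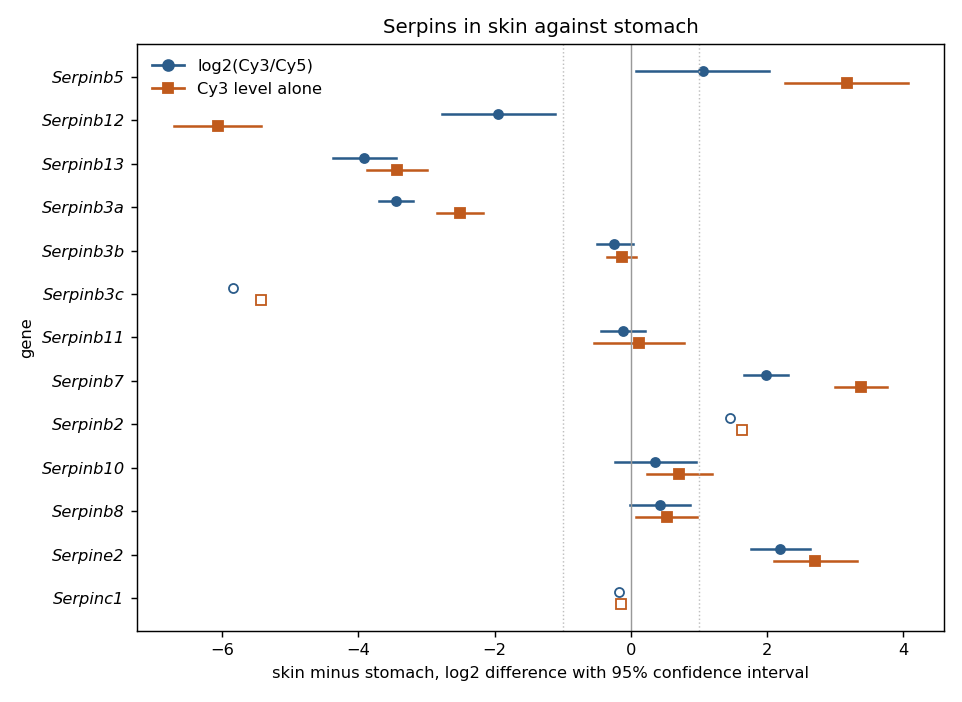
Skin minus stomach as a log2 difference (horizontal axis) for 13 serpins (vertical axis), by log2(Cy3/Cy5) in blue circles and by the Cy3 level alone in orange squares. Bars are 95% confidence intervals of the fit, dotted lines mark a difference of 1 in either direction, and open symbols without bars are the 3 chosen genes, which were not tested. Both scales put Serpinb3c, Serpinb3a, Serpinb13 and Serpinb12 to the left (stomach) and Serpinb7, Serpinb2 and Serpine2 to the right (skin), and they lie far apart for Serpinb12 (-1.95 and -6.07).

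The genes flanking the cluster were looked at for the same tissues. Of 6 flanking genes (Bcl2, Kdsr, Vps4b, Phlpp, Cdh7 and Cdh19), all tested, none was called higher in skin or in stomach, where 3.62% and 3.85% of all probes were, so that a count of 0 among 6 is near the background. At an unadjusted p under 0.05 limma gave 1 higher and 2 lower in skin and 2 higher and 2 lower in stomach, with differences of -0.85 to 0.86. Their median differences were -0.07 in skin and 0.02 in stomach, beside medians of -0.06 and -0.09 over all probes. Cdh7, a cadherin gene next to Serpinb8, was highest in cerebellum (3.83) and brain cortex (2.97).

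Genes of squamous epithelium were often high in skin and stomach, as Serpinb2 was. Of 32 genes listed, 7 had a named probe, 6 were called higher in skin (3.62% of all probes) and 5 in stomach (3.85%), with median differences of 4.13 and 3.68 where all probes had -0.06 and -0.09. Krt10, the keratin of differentiating keratinocytes, had means of 5.44 in skin and 4.65 in stomach, and 0.99 in the eyes. Pkp1, a plaque protein of desmosomes, had means of 3.50 in stomach and 3.95 in the eyes and exceeded the mean of the other tissues by 5.29 in skin. Abca12, a lipid transporter of the skin barrier, had 3.98 in skin and 4.09 in stomach and was not detected in the eyes. The Pkp1 arrays of the eyes (4.32 and 3.57) and of stomach (3.41 and 3.58) overlapped, while the Serpinb2 level of the eyes (mean -0.72) was near that of tissues without detection. Skin and stomach were the 2 highest tissues only for Krt10 and Abca12. Bladder, where Serpinb2 was not detected, was the highest tissue of Sprr1a (3.25) and came second for Fam25c (4.30) and Dst (3.38). Kprp was called in neither skin nor stomach and was highest in heart. Gland genes of the stomach were present as well: Gkn3, Ctse and Slc26a9, 3 of 14 listed with a named probe, were all called higher in stomach (3.85% of all probes), with means of 4.45, 3.31 and 4.43.

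Serpinc1 shared the liver with the clotting and complement genes that are reported here. Of 52 such genes listed, 3 had a named probe and all 3 were called higher in liver (5.4% of all probes), with a median difference of 6.93 where all probes had -0.10. They were coagulation factor F5 (4.61), the factor XIII subunit F13b (7.25) and the complement regulator C4bp (6.93). F13b was detected only in liver and kidney, and C4bp on no array of several tissues, so these are not exact sizes. F13b had 7.79 in liver and 6.98 in kidney, and C4bp had 7.19 in liver and 3.94 in stomach, where Serpinc1 stayed at 0.36 or below outside liver. F5 had 5.80 in liver and 3.78 in bone, but the bone mean rests on the array that read 5.0: the other read 2.57, below the eyes (2.66). All 5 hepatocyte markers with a named probe (Apoa2, Cps1, Agxt, Spp2 and Acaa1b) were called higher in liver (5.4% of all probes), although Apoa2 had its highest mean in cerebellum (4.28).

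Of the named probes reported here, those most like each gene were ranked by Pearson r over the 15 tissue means, given as a description because a few high tissues set it. For Serpinb2 the nearest was 4930438A08Rik (r = 0.974), which no other tested probe exceeded, followed by Pinlyp (0.925), its cluster neighbour Serpinb7 (0.923), 2310050C09Rik (0.922) and Sdr16c6 (0.902). All of these were highest in skin and next in stomach, for example 3.95 and 2.78 for 4930438A08Rik. For Serpinb3c the nearest was Serpinb3a (0.984), then Amy2a5 (0.881), 1810007D17Rik (0.869), Tmem45a2 (0.866) and Serpinb13 (0.860). All 5 were highest in stomach, but of them Serpinb3a alone had the eyes second (1.88). For Serpinc1 the nearest were Gm8883 (0.995), 4922502H24Rik (0.992), Cfhr3 (0.992), C730036E19Rik (0.992) and 2410017I17Rik (0.983), each high in liver alone, so that the order among them carries little. Among the serpins themselves, Serpinb2 had r of 0.870 with Serpinb3b, 0.864 with Serpinb8 and 0.832 with Serpinb12 after Serpinb7, and Serpinb3c had 0.805 with Serpinb11 after Serpinb3a and Serpinb13. Serpinb2 and Serpinb3c had r = 0.524 with each other.

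Promoters are shown because several cluster genes were called in skin and stomach together, although not all of them followed one pattern. The 130 bases before the first listed start of each gene (RefSeq, GRCm38.p6) are written in the direction of the gene. The stretch is chr1:107511293-107511422 on the plus strand for Serpinb2, chr1:107278372-107278501 on the minus strand for Serpinb3c and chr1:160978453-160978582 on the plus strand for Serpinc1. The letters TGANTCA allow any middle base, where the core bound by AP-1 factors, which are known from keratinocyte genes, has C or G. The Serpinb2 match, TGAATCA, has A there and is thus not that core. Capitals mark the letters TATAAA and TGANTCA. Both were chosen after the levels were known:
Serpinb2: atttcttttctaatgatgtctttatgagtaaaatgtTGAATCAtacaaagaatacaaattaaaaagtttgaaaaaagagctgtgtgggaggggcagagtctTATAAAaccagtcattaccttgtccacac
Serpinb3c: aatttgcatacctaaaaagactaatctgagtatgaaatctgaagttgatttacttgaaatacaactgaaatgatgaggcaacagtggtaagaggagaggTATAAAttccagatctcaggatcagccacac
Serpinc1: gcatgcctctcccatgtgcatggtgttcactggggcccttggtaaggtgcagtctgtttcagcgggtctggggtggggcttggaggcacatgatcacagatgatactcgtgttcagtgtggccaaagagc
TATAAA was searched on the strand of the gene, starting 40 to 20 bases before the start, and TGANTCA over 250 bases before to 50 after it, where it reads the same on both strands. Serpinb2 held TATAAA at 29 bases and Serpinb3c at 31 bases before the start. No other of the 11 clade B genes with a listed promoter held it in that window. The share was 2.41% of all 27,025 genes and 1.99% of all 32,851 promoters. The Serpinb2 match holds for the first of its 2 listed starts: the second has no TATAAA in the window, and TGANTCA lies at -181 from it. Serpinb2 also held TGANTCA, at 94 bases before the start. So did Serpinb5, Serpinb12, Serpinb11, Serpinb7, Serpinb10 and Serpinb8, 7 of 11 in all at any listed start, where 8.97% of all 27,025 genes and 7.81% of all promoters did. It was absent from this window in Serpinb3c, Serpinb3a, Serpinb3b, Serpinb3d and Serpinc1. Serpinb3b held TATAAA at 41 bases before the start, just outside the window. A match to these letters is not evidence of binding.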

How the data were processed

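The authors hybridised tissue RNA (Cy3) and reference RNA (Cy5) to 44K oligonucleotide arrays of 60-base probes and read the spots with Agilent Feature Extraction (9.5.1.1). Per spot and channel, the deposited scanner files hold a mean signal and a local background, each an intensity in scanner units, and flags of other kinds. The table of values by the authors is on a log10 scale: over 11,596 bright probes it followed log10 of the processed Cy3 signal (slope 0.998) minus the deviation of log10 Cy5 from its mean (slope -0.997).

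Here the background of the mean signals was corrected with normexp (offset 50), 475 spots with outlier flags were removed, and each array was normalised by loess (limma 3.58.1, R 4.3.3). Probes detected in Cy3 on both arrays of at least 1 tissue were tested, 21,019 probes of that table, with 1 coefficient per tissue over 30 arrays and two-sided moderated tests. The Benjamini-Hochberg adjustment ran over all probes tested in a comparison. Between 53.9% and 76.8% of probes were detected in Cy3 per array, and with 2 arrays per tissue it is the number of arrays that limits the precision. A bound sets the brighter tissue's mean Cy3 level against the lowest level detected on each array of the dim tissue (or the probe's own level, where higher), under Aquantile scaling of the channels and under quantile scaling of Cy3, and the lower of both is given.

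Symbols came from the study's probe lists, with 5,619 probes named (5,047 of them tested), and current symbols from the GRCm38.p6 gene table. The text names all serpin probes, 6 genes flanking the cluster, the 5 named probes most like each chosen gene, and genes of lists of squamous epithelium, clotting and complement, and cell type markers, with up to 6 of a list, and Kprp besides, chosen after its values were seen. Some genes of these lists and ranks are not reported here, and counts, medians and sums leave them out. The genes, lists and rules were chosen with earlier results of these data known. The fit was tested on simulated data. The alternatives were other background corrections, scalings and filters, Cy3 alone, the value table, each array left out, and replicate, slide or scan day as a block. Python 3.11.15 drew the figures.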

Additional observations from a re-analysis of the deposited data

How the results depend on the processing

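Of the 3 chosen genes, none changed its highest tissue under any setting. With the Cy3 level alone, an offset of 10 and median centring, stomach stood above the next tissue by 3.43, 3.08 and 2.82 for Serpinb3c, and liver by 6.55, 4.65 and 3.43 for Serpinc1, which gave 2.95 with the processed signals and 3.26 with the value table. Against the other tissue on the same slide with the highest level, Serpinb2 in skin gave 6.77, Serpinb3c in stomach 6.47 and Serpinc1 in liver 4.94, each against an array on which the probe was not well above background, so that these describe the arrays and give no exact size. Leaving out 1 array at a time gave 1.17 to 1.75 for Serpinb2, 3.13 to 3.24 for Serpinb3c and 4.83 to 5.0 for Serpinc1. It gave 9 serpins by the F-test, 4 in skin, 6 in stomach, 0 in liver (0 to 0) and 5 to 6 between skin and stomach. The number called in skin was 8 with the processed signals and 8 with the value table, and 2 with median centring, which moved the median of all probes by -0.19 in skin and -0.18 in liver. Between skin and stomach 3 differed with the processed signals and with the value table, where Serpinb12 lost its call, at 0.09 and 0.15. Whether equal replicate numbers meant the same animal was not settled. The r of deviations ran from -0.246 to 0.342 over 105 pairs of tissues, 33 above 0.1, but these deviations also carry slide and array noise. With the replicate block 4 were called in skin, 6 in stomach, 5 between them and 9 by the F-test. With scan day as a random block (correlation 0.586) these were 3, 5, 6 and 9. With slide as a random block (correlation 0.693) they were 4, 6, 5 and 9, and by the Cy3 level alone 3, 4, 6 and 9. A fixed slide term could be fitted only for skin against stomach, and its values are not given here. Weak signals limit what could be compared: Serpinb3d, and the dim tissues of each gene, were not well above background.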
